A study of Homo sapiens with 8 samples.

Results

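The genes described here are those of glycolysis, of lactate exchange and the pyruvate dehydrogenase step, and of the pentose phosphate pathway. They were named by function: 33 genes, of which 31 of the 19775 genes with a probe set carrying 1 gene symbol were measured. SLC16A1 and SLC16A3, the lactate transporters of the list, were not analysed here. Cells were exposed for 24 h to 75 nM A939572, which blocks the fatty acid desaturase SCD1, or for 24 h to the solvent DMSO. The lines, all established from human kidney cancer, were ACHN, CAKI2, A498 and CAKI1. Each gave 1 array per condition, 8 in all, and all grew in serum-supplemented DMEM. The submitters call all 4 lines clear cell renal carcinoma lines and name no genetic change made to them.

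Glycolysis splits glucose into pyruvate in the cytosol, with a small yield of ATP and NADH. Pyruvate is then either reduced to lactate, which restores NAD, or oxidised in mitochondria by the pyruvate dehydrogenase complex, which the PDK kinases switch off. The pentose phosphate pathway branches off at glucose phosphate and supplies ribose for nucleotides and NADPH, the reductant of fatty acid synthesis. Clear cell renal carcinoma is known for high glycolytic gene expression through hypoxia-inducible factors, which bind DNA at a short core, ACGTG being among its forms.

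Levels are log2(signal + 16) after quantile normalization, 1 value per array and gene from the gene's brightest probe set. Values for the 4 lines are given throughout in the order ACHN, CAKI2, A498, CAKI1. Differences are A939572 minus DMSO within a line, averaged with the SD over the 4 lines, and were tested in limma with the line as a block and Benjamini-Hochberg adjustment over 12093 genes at 0.05. The lines are the replicates, and separate cultures within a line are not stated. Each array read RNA of a whole culture, so fewer cells with a transcript and less of it per cell cannot be told apart. Probe sets differ in brightness for technical reasons, so levels are compared between arrays and not between genes.

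Several measures of the arrays moved with treatment. For ACTB the signal of the 3′ control probe set over that of the 5′ one was 3.02 to 4.22 with A939572 and 2.12 to 2.33 with DMSO, and for GAPDH it was 1.01 to 1.11 with A939572 and 0.962 to 1.05 with DMSO. Median signals of the arrays were 68.4 to 76.1 with A939572 and 71.1 to 84.0 with DMSO. The part of either in the results was not tested.

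Promoter windows are shown for 2 of the genes that rose, HK2 and PDK1, and 2 that fell, PKM and GPI, and were chosen after their values were seen. They run from 250 bases before to 50 bases after an annotated start, from RefSeq on GRCh38.p14, 5′ to 3′ on the gene's strand, with every ACGTG or its reverse complement CACGT in capitals.
HK2 window 1 (chr2:74833877-74834176, + strand): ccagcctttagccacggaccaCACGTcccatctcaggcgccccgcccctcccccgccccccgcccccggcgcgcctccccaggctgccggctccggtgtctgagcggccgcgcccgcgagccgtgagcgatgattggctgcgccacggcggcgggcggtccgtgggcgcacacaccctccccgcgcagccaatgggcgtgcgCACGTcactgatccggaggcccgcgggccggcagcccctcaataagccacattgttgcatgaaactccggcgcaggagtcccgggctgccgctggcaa
HK2 window 2 (chr2:74834920-74835219, + strand): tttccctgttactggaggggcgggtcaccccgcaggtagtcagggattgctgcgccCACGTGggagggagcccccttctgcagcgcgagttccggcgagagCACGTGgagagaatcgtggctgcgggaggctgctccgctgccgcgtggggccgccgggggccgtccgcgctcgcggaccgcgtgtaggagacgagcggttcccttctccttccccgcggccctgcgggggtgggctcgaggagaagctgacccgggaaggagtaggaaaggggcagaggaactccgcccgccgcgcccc
PDK1 window 1 (chr2:172555123-172555422, + strand): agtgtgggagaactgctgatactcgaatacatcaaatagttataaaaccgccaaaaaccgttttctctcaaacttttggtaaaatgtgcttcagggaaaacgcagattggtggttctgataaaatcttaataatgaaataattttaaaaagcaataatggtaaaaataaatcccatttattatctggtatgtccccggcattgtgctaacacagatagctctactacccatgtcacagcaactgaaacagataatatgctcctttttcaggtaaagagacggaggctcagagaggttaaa
PDK1 window 2 (chr2:172555840-172556139, + strand): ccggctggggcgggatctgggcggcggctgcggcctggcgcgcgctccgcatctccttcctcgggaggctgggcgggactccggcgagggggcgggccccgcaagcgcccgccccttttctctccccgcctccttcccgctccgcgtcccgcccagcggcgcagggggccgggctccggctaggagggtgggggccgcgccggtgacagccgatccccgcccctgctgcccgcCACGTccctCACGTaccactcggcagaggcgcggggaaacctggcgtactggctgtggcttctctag
PKM (chr15:72231141-72231440, - strand): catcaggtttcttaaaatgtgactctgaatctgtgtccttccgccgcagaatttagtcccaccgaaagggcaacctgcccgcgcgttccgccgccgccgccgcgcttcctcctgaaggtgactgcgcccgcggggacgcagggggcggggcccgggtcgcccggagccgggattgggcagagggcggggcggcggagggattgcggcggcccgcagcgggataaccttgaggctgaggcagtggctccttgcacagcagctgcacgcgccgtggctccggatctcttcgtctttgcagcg
GPI (chr19:34364742-34365041, + strand): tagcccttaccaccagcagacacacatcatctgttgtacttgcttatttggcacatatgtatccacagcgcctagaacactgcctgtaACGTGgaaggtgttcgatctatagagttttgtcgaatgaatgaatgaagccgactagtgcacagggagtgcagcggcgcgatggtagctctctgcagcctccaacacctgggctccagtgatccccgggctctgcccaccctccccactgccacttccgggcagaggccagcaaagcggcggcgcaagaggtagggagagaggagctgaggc

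The letters ACGTG, searched on both strands, were in 38.3% of 60 windows of 30 members and in 21.4% of all 35116 windows in the table. The palindrome CACGTG, the E-box read by MYC and by the glucose-responsive factors, contains that core, and it stood in 13.3% of member windows and 7.26% of all windows. TGATGNAA, letters of the element read by ATF4, stood in 3.33% of member windows and 3.62% of all. HK2 had 2 copies of CACGTG in its downstream window, while the PKM window held no ACGTG. Other forms of the core bound by hypoxia-inducible factors were not searched or marked. Both genes that rose and had a window, HK2 and PDK1, held ACGTG, as did 8 of 11 members that fell and 8 of 16 that did not pass. CACGTG stood in 1 of those 2 (HK2), in 4 of 11 that fell and in 3 of 16 that did not pass. These counts are per gene, over any of its windows. The same shares over all genes were not computed, so 21.4% and 7.26% are not their backgrounds. Windows of one gene can overlap, and a match is a description of letters only. SLC2A3, PFKFB2 and SLC16A1 are named only.

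With A939572, 3 of the 31 members rose, 11 fell and 17 did not pass the test. The background over all 12093 genes was 30.6% called, 14.7% higher and 15.9% lower, against 9.68% and 35.5% of the members. HK2, SLC2A3 and PDK1 were the 3 that rose. The members that fell were GPI, PFKM, ALDOA, TPI1, ENO1, PKM, LDHA, PDHB, PDK2, PGD and TKT. PDK2 passed the filter level of 6.41 through its DMSO arrays (mean 7.17), its mean with A939572 being 6.17, and 10 members fell under a stricter filter that left it out. The median difference was -0.29 over the members and -0.03 over all genes tested. In all 4 lines 13 members were lower and 4 higher, against a background of 25.3% and 22.7% of genes. The calls of SLC2A3, HK2, GPI, PFKM, TPI1, PKM and TKT, 7 of 14, were kept with any 1 line left out, and the count of members that fell was 6 without ACHN, 5 without A498 and 9 without CAKI2 or CAKI1. Over all genes, 1928 fell in the full fit, 1395 without ACHN, 1473 without A498, 1523 without CAKI2 and 1567 without CAKI1. With the line not in the fit, 0 members passed in limma in either direction, beside 38 genes higher and 29 lower of 12093.

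**Figure D1:**
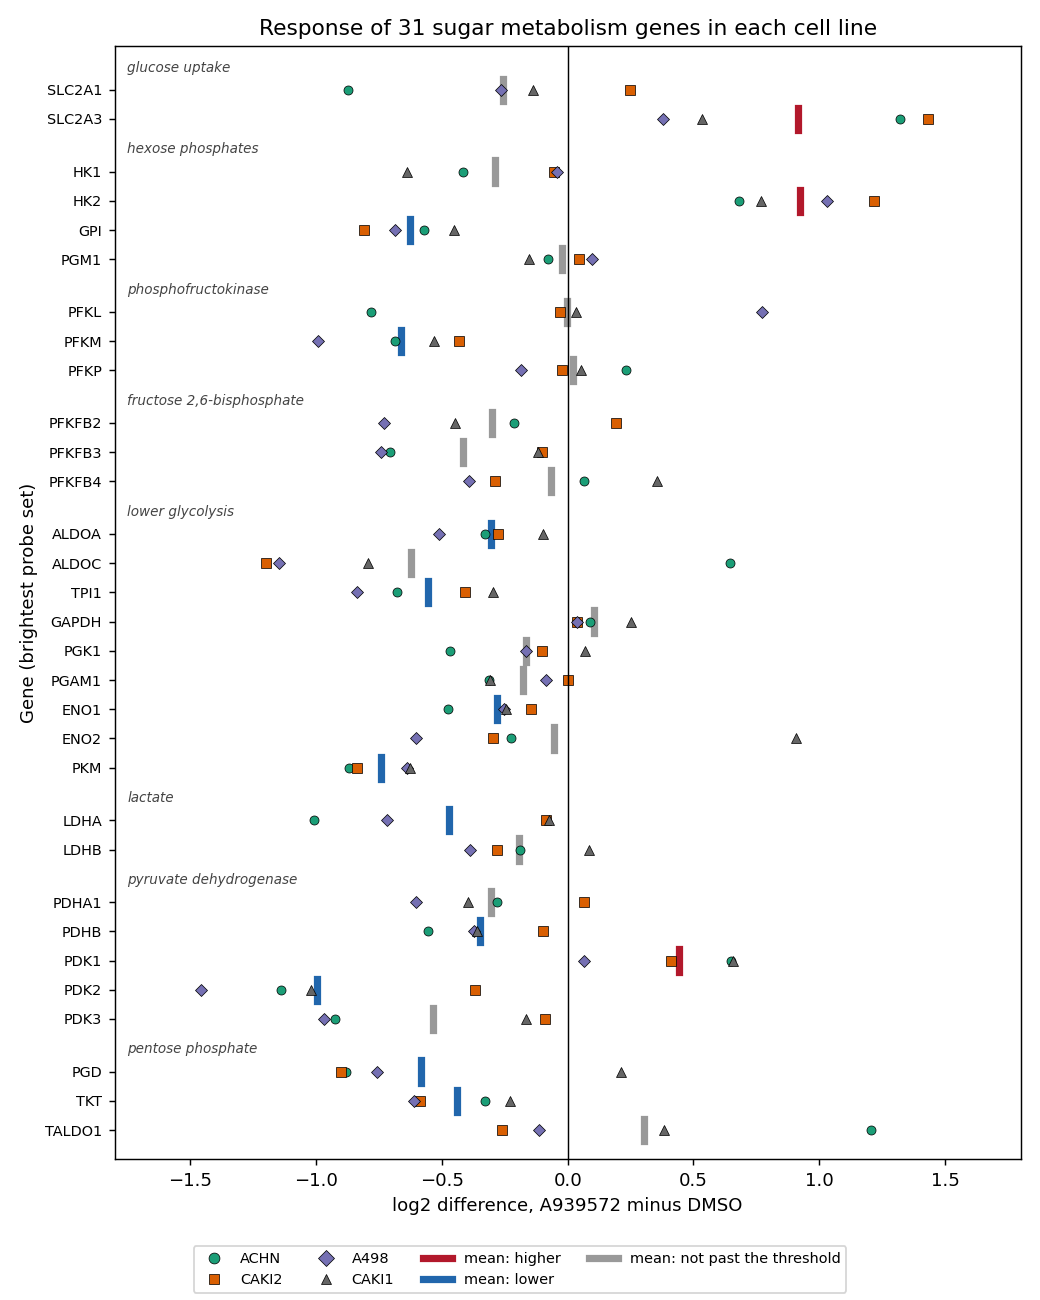
Difference of each of the 31 genes in each line, log2 of A939572 minus DMSO on the x axis, genes in rows by role; symbols are the 4 lines, 1 pair of arrays each, and the vertical bar is their mean, coloured by the limma call. Most bars lie left of 0, with HK2 (0.93), SLC2A3 (0.92) and PDK1 (0.44) to the right.

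Glucose enters through facilitative transporters. SLC2A3 encodes GLUT3, a high-affinity glucose transporter. Its level was 9.52, 8.52, 9.89 and 10.26 with A939572, against 8.20, 7.08, 9.51 and 9.73 with DMSO. It was higher in each line, by 1.32, 1.43, 0.38 and 0.53, although the groups overlapped because the lines started apart. The mean difference was 0.92 ± 0.54 (SD, n = 4 lines), or 1.89-fold (limma adjusted p = 0.00909). Its other bright probe sets gave 1.38 ± 0.44 and 0.64 ± 0.56. SLC2A3 has a near-identical paralog, SLC2A14, so its values are uncertain to that extent. SLC2A1, the GLUT1 transporter of most proliferating cells, had a difference of -0.26 ± 0.46 (95% interval -0.64 to 0.13) and did not pass (adjusted p = 0.29). It was lower in ACHN (-0.87), A498 (-0.27) and CAKI1 (-0.14) and higher in CAKI2 (0.25), and its other bright probe set gave -0.96 ± 1.35.

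Hexokinases trap glucose as its phosphate. HK2, the inducible hexokinase that docks on mitochondria, stood at 11.28, 13.60, 11.51 and 10.45 with A939572 and at 10.60, 12.39, 10.48 and 9.68 with DMSO. The rise was similar from line to line, 0.68, 1.22, 1.03 and 0.77, while CAKI2 was highest in both conditions. The mean difference was 0.93 ± 0.24, or 1.90-fold (limma adjusted p = 0.00111). Both other bright probe sets went the other way, at -0.36 ± 0.48 and -0.27 ± 0.60, lower by 1.03 and 1.14 in CAKI2, and the mean of all its probe sets was 0.098 (adjusted p = 0.663), so the direction rests on the brightest probe set. HK1, the constitutive hexokinase, had -0.29 ± 0.29 and did not pass (adjusted p = 0.151), below 0 in 4 of 4 lines.

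GPI, which turns glucose phosphate into fructose phosphate, had levels of 10.04, 11.71, 10.87 and 10.68 with A939572 and 10.61, 12.52, 11.56 and 11.13 with DMSO. It fell in each line by 0.45 to 0.81 on the log2 scale. Its mean difference was -0.63 ± 0.15, the DMSO level being 1.55-fold that with A939572 (limma adjusted p = 0.00439). PGM1, which links glucose phosphate to glycogen, had a difference of -0.02 ± 0.11 with a 95% interval of -0.26 to 0.21.

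Phosphofructokinase makes the committed step, and its 3 subunit genes differed in what they did. PFKM, the muscle-type subunit, had 11.61, 10.87, 10.74 and 10.92 with A939572, against 12.30, 11.30, 11.73 and 11.45 with DMSO. It was lower in 4 of 4 lines, with a mean of -0.66 ± 0.25 (adjusted p = 0.00491). PFKP, the platelet-type subunit, had 0.02 ± 0.17 (95% interval -0.21 to 0.25). PFKL, the liver-type subunit, averaged -0.0023 ± 0.63 with ACHN (-0.78) and A498 (0.77) on opposite sides of 0. Its other bright probe set gave 0.09 ± 0.42, with -0.19 in ACHN and 0.70 in CAKI1. The PFKFB genes encode bifunctional enzymes that set the level of the sugar bisphosphate activating phosphofructokinase, and 0 of 3 passed in limma. PFKFB3, the form with the strongest kinase activity, was nearest, at -0.42 ± 0.35 (adjusted p = 0.0543), with -0.71 in ACHN and -0.74 in A498 beside -0.10 in CAKI2 and -0.12 in CAKI1; left without CAKI1 it passed at -0.52 (adjusted p = 0.0491). PFKFB2 had -0.30 ± 0.39, with 0.23 ± 0.39 in its other bright probe set, and PFKFB4 had -0.07 ± 0.34.

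In the lower part of glycolysis 4 of 9 genes fell and 0 rose, beside 15.9% lower and 14.7% higher of all genes. PKM encodes pyruvate kinase, the last step, and was the only member whose 2 groups of arrays did not overlap, 1 of 31 (3.23%) beside 9.57% of all genes. With A939572 it lay at 9.66, 9.84, 9.65 and 9.76, against 10.53, 10.67, 10.29 and 10.39 with DMSO. The difference was -0.74 ± 0.13 (limma adjusted p = 0.00267), the DMSO level being 1.67-fold that with A939572. Its other probe set gave -0.26 ± 0.32, with 0.14 in CAKI1, and the probe sets are not tied here to the M1 or M2 splice form.

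TPI1, which interconverts the triose phosphates, had 13.59, 14.01, 12.80 and 13.86 with A939572 and 14.27, 14.42, 13.64 and 14.16 with DMSO. All 4 lines were lower, and the mean was -0.55 ± 0.25 (limma adjusted p = 0.00476). Its other probe sets had -0.52 ± 0.33 and -0.41 ± 0.19, and the call was lost when only the last of these was used (adjusted p = 0.114). ALDOA, the main aldolase, fell by less, with -0.30 ± 0.17 (adjusted p = 0.0332). Its dimmer probe sets had -0.33 ± 0.13 and -0.61 ± 0.10. That call was lost without ACHN (-0.29, adjusted p = 0.0944), CAKI2 (-0.31, 0.082) or A498 (-0.23, 0.127). ENO1, the common enolase, had -0.28 ± 0.14 (adjusted p = 0.0307), and its other bright probe sets gave larger falls of -0.53 ± 0.34 and -0.64 ± 0.20. The ENO1 call was lost without ACHN (-0.21, adjusted p = 0.133), A498 (-0.29, 0.0673) or CAKI1 (-0.29, 0.0704).

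GAPDH, used as a loading reference in many assays, had 15.21, 15.36, 15.31 and 15.35 with A939572, against 15.12, 15.33, 15.27 and 15.10 with DMSO. Its difference of 0.10 ± 0.10 did not pass, and the 95% interval ran from -0.06 to 0.27. The other probe sets gave -0.01 ± 0.08 and -0.01 ± 0.05. Control probe sets for GAPDH, on the signals as deposited, gave -0.11 ± 0.28 at the 3′ end, -0.17 ± 0.29 in the middle and -0.19 ± 0.24 at the 5′ end, each above 0 in 1 of 4 lines. Many copies of GAPDH, ALDOA, ENO1, PGK1, PGAM1, TPI1 and LDHB sequence exist as pseudogenes, so probe sets for these genes may read more than 1 locus.

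PGK1, which makes the first ATP of the pathway, did not pass in its brightest probe set (-0.17 ± 0.22, adjusted p = 0.228). Its 4 other bright probe sets lay lower, at -0.35 ± 0.36, -0.37 ± 0.33, -0.58 ± 0.24 and -0.47 ± 0.28, each lowest in ACHN. PGAM1, the phosphoglycerate mutase, had -0.18 ± 0.16 (adjusted p = 0.154). ALDOC, the brain-type aldolase, had -1.20 in CAKI2, -1.15 in A498 and -0.79 in CAKI1 but 0.65 in ACHN, where its levels of 5.76 with A939572 and 5.12 with DMSO lay below the filter level of 6.41. Its mean of -0.62 ± 0.87 did not pass (adjusted p = 0.138), and without ACHN the difference was -1.05 (adjusted p = 0.00517). ENO2, the neuronal enolase, was 0.91 higher in CAKI1 and 0.23 to 0.60 lower elsewhere, for a mean of -0.05 ± 0.66. The fall of 0.60 was in A498, where ENO2 levels of 5.39 with A939572 and 5.99 with DMSO lay below the filter level.

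**Figure D2:**
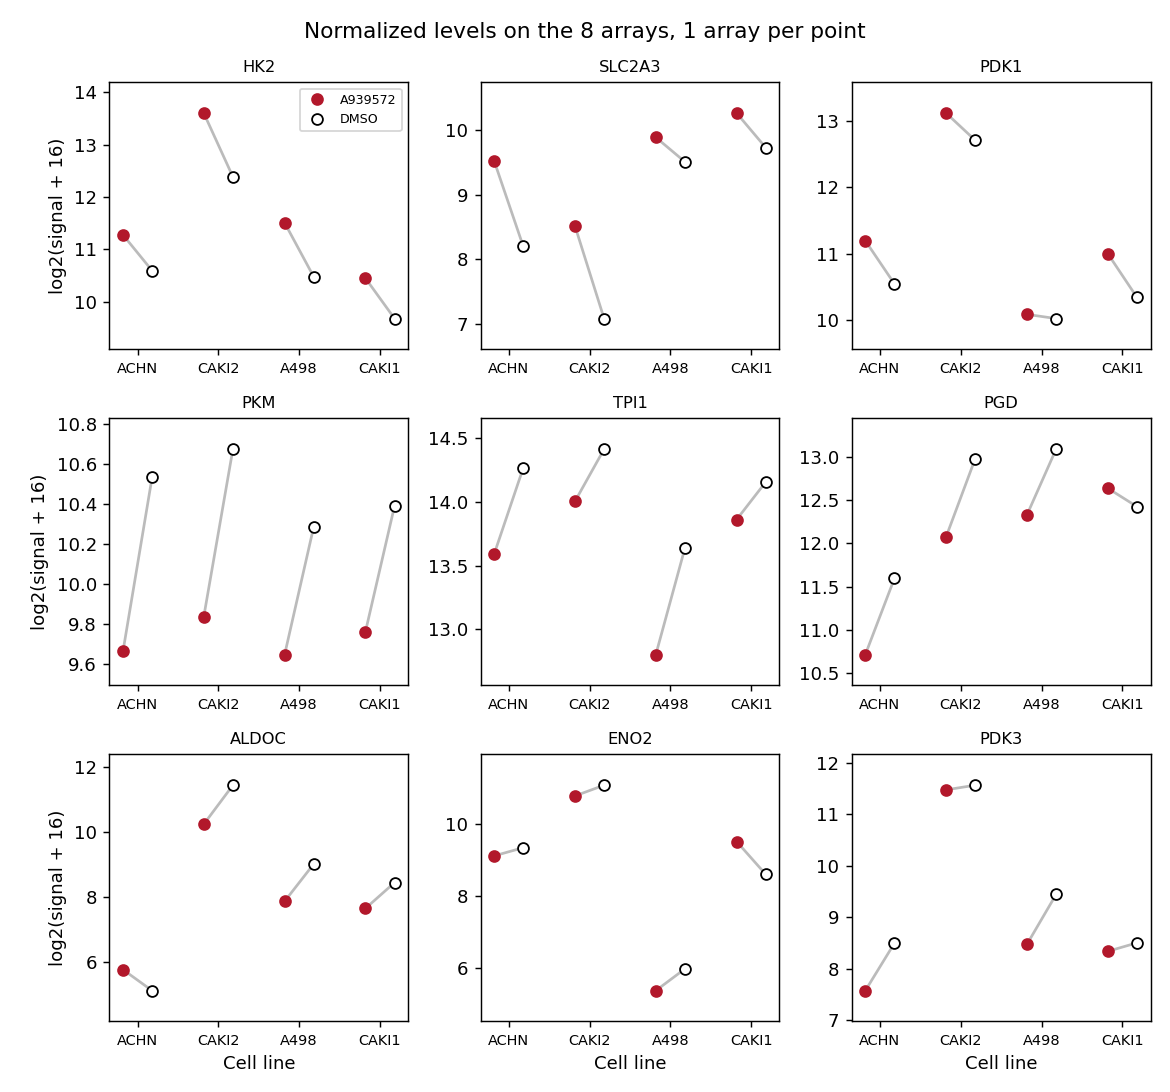
Normalized levels, log2(signal + 16), of 9 genes on the 8 arrays; each panel has the 4 lines on the x axis, with A939572 (filled) left of DMSO (open), 1 array per point and a grey line joining the arrays of a line. HK2, SLC2A3 and PDK1 slope down towards DMSO in every line, PKM and TPI1 slope up in every line, and ALDOC, ENO2 and PGD have 1 line that runs against the other 3.

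Lactate dehydrogenase converts pyruvate to lactate and back. LDHA, the form that favours lactate, lay at 13.83, 15.49, 14.28 and 15.38 with A939572 and at 14.83, 15.57, 14.99 and 15.45 with DMSO. The fall was uneven, at -1.01 in ACHN and -0.72 in A498 beside -0.08 in CAKI2 and -0.07 in CAKI1. Its mean was -0.47 ± 0.47 (limma adjusted p = 0.041), a call lost without ACHN (-0.29, adjusted p = 0.152) or A498 (-0.39, 0.144). LDHB, the form that favours pyruvate, had -0.19 ± 0.20 (adjusted p = 0.136), and -0.45 ± 0.20 in its other probe set, below 0 in 4 of 4 lines there.

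At the entry to mitochondria the kinases of pyruvate dehydrogenase did not move together. PDK1, the kinase gene best known as a target of hypoxia-inducible factor, had 11.20, 13.11, 10.09 and 11.00 with A939572, against 10.55, 12.71, 10.02 and 10.34 with DMSO. It rose by 0.44 ± 0.28 (limma adjusted p = 0.0355), least in A498 at 0.06. The next probe set gave a larger rise of 1.11 ± 0.43, 0.65 or more in each line, and the dimmest 0.56 ± 0.99. That dimmest probe set passed the filter level through its A939572 arrays (mean 6.70), its mean of 6.14 with DMSO lying below that level. The PDK1 call was lost without ACHN (0.38, adjusted p = 0.131), CAKI2 (0.46, 0.0885) or CAKI1 (0.37, 0.121).

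PDK2, a widely expressed kinase of the complex, had 6.13, 6.71, 5.22 and 6.62 with A939572 and 7.27, 7.08, 6.68 and 7.64 with DMSO. It fell by 1.00 ± 0.46 on the log2 scale (adjusted p = 0.028), but its mean level of 6.17 with A939572 lay below the filter. Its other probe set gave -0.21 ± 1.72, from -2.19 in ACHN to 1.81 in CAKI2. That probe set also had a mean below the filter with A939572 (6.39), its mean with DMSO being 6.59. The call was lost without ACHN (-0.95, adjusted p = 0.087), A498 (-0.84, 0.0871) or CAKI1 (-0.99, 0.0829), and with the mean of all its probe sets (-0.60, 0.258). PDK3, the X-linked kinase, did not pass (-0.54 ± 0.47, adjusted p = 0.058), and its 4 other bright probe sets ranged from -1.33 ± 0.72 to -0.25 ± 0.33. PDHB, the beta subunit of the enzyme itself, had -0.35 ± 0.19 (adjusted p = 0.049) and -0.42 ± 0.27 in its other probe set, a call lost without ACHN (-0.28, 0.187), A498 (-0.34, 0.125) or CAKI1 (-0.34, 0.118). PDHA1, the catalytic alpha subunit, had -0.30 ± 0.28 (adjusted p = 0.107).

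In the pentose phosphate pathway 2 of 3 genes fell, beside 15.9% of all genes. TKT, the transketolase that shuttles carbon between ribose and glycolysis, had 12.53, 13.26, 13.28 and 13.80 with A939572, against 12.86, 13.85, 13.89 and 14.02 with DMSO. It was lower in 4 of 4 lines, at -0.44 ± 0.19 (limma adjusted p = 0.0106), and had -0.53 ± 0.17 and -1.04 ± 0.73 in its other probe sets. The last of these passed the filter level through its DMSO arrays (mean 7.42), its mean of 6.39 with A939572 lying below that level. PGD, the phosphogluconate dehydrogenase that yields NADPH, had 10.72, 12.08, 12.33 and 12.64 with A939572 and 11.60, 12.98, 13.09 and 12.43 with DMSO. ACHN, CAKI2 and A498 were lower alike, at -0.88, -0.90 and -0.76, and CAKI1 was 0.21 higher. The mean of -0.58 ± 0.53 passed (adjusted p = 0.037) but not without ACHN (-0.48, 0.129), CAKI2 (-0.47, 0.131) or A498 (-0.52, 0.124). TALDO1, the transaldolase, was above 0 in ACHN (1.21) and CAKI1 (0.38) and below 0 in CAKI2 (-0.26) and A498 (-0.11), for a mean of 0.30 ± 0.66 (adjusted p = 0.291).

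**Figure D3:**
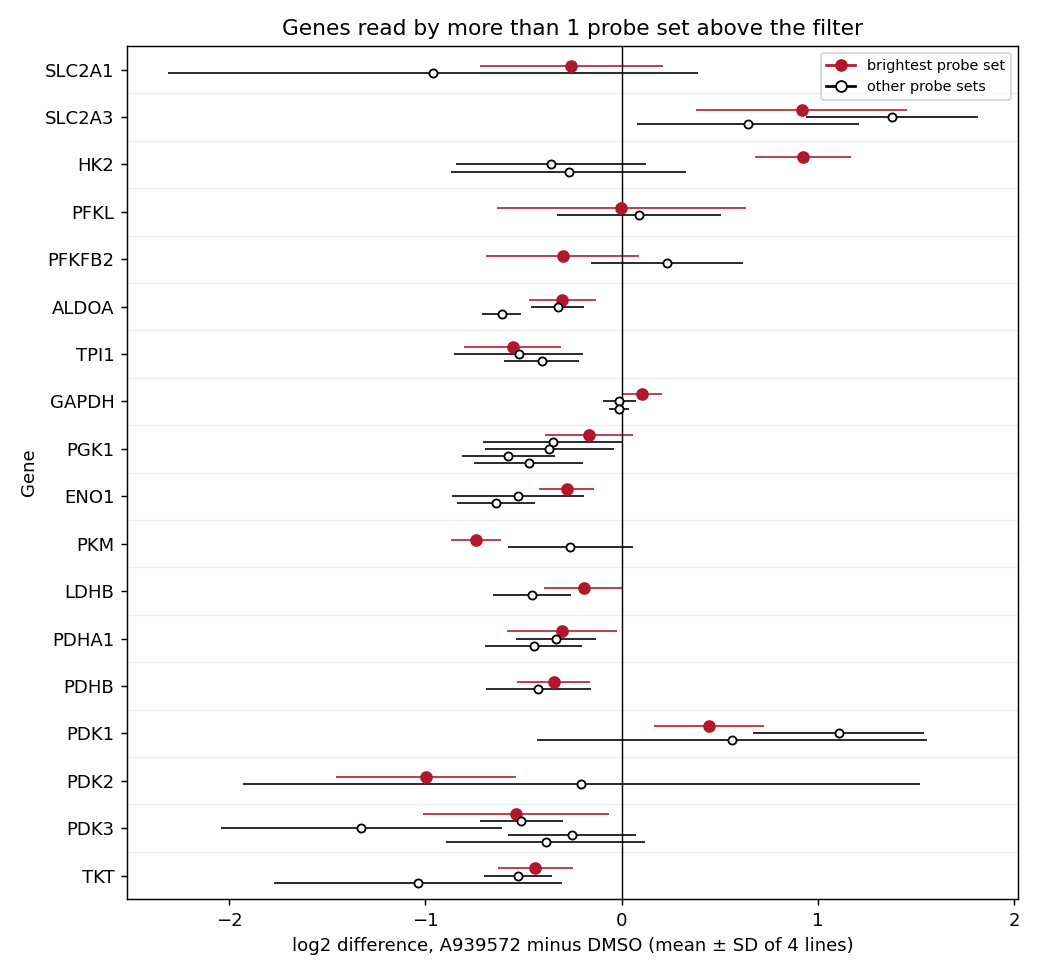
Difference of A939572 minus DMSO in log2 units (x axis, mean ± SD of 4 lines) for each probe set above the filter level of the 18 genes that have more than 1; red is the brightest probe set and black the others. HK2 is the called gene whose brightest probe set (0.93) stands opposite its others (-0.36 and -0.27). Those of ALDOA, TPI1, ENO1, PDHB and TKT are all below 0, the dimmest of TKT having a mean below the filter level with A939572.

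Line by line, with 1 array against 1 and no test, the share of members changed at least 1.5-fold was read against the same share of all genes. In ACHN 5 members were higher and 10 lower, beside 18.6% and 19.1% of all genes. CAKI2 had 2 higher and 5 lower, beside 15.4% and 17.2%. A498 had 2 higher and 14 lower, beside 16.1% and 17.2%, and CAKI1 3 higher and 4 lower, beside 13.2% and 16.7%. By median, members stood at -0.39 in A498 and -0.33 in ACHN, and closer to 0 in CAKI1 (-0.14) and CAKI2 (-0.10). The median SD over the lines was 0.28 for the members and 0.31 for all genes.

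Most members also differed between the lines. Taking the 2 arrays of a line together, with treatment as a term, the limma F test called 26 of 31 members (83.9%) beside a background of 61% of genes. The 2 arrays of a line differ in treatment and show only the spread between arrays of that line. The members' line means spanned a median of 1.20 log2 units, against 0.95 over all genes. The 5 that did not pass were PFKFB2, GAPDH, PGAM1, PKM and PDK2. With 1 line left out 20 to 24 members passed, beside 5770 to 6408 of 12093 genes. Of the 26 members, 13 passed whichever line was left out.

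CAKI2 stood highest for many of these genes. Both of its arrays lay above the other 6 for 16 members (51.6%), a count chosen after the levels had been seen, beside a background of 10.7% of genes. They were SLC2A1, HK2, GPI, PFKL, PFKP, PFKFB3, PFKFB4, ALDOA, ALDOC, PGK1, ENO1, ENO2, LDHA, PDK1, PDK3 and TALDO1. Of 18 other bright probe sets of these genes 16 also had their highest line mean in CAKI2, and the 2 of HK2 had their lowest there. In ACHN both arrays lay below the other 6 for 8 members, GPI, PFKP, PFKFB3, PFKFB4, ALDOC, PGK1, PGD and TKT, beside 7.15% of genes. ACHN lay above for 0 members beside 7.79%, and CAKI2 below for 0 beside 10.1%. A498 lay above for 0 beside 8.33% and below for 3 (PGM1, ENO2 and PDK1) beside 10.1%. CAKI1 lay above for 2 (PGM1 and PDHA1) beside 9.35% and below for 1 (HK2) beside 8.59%.

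The widest spreads were in isoforms with tissue-restricted expression. ALDOC averaged 10.83 in CAKI2 and 5.44 in ACHN, below the filter level there, with 8.44 in A498 and 8.04 in CAKI1 between them (F test adjusted p = 5.75e-05). ENO2 averaged 10.93 in CAKI2 and 5.69 in A498, below the filter level there, with 9.23 in ACHN and 9.06 in CAKI1 (adjusted p = 1.68e-05).

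PDK3 averaged 11.52 in CAKI2 and 8.03 to 8.96 in the other lines (adjusted p = 3.25e-05), and without CAKI2 the adjusted p was 0.054. By its brightest probe set HK2 was highest in CAKI2 (12.996) and lowest in CAKI1 (10.07), and ACHN (10.94) and A498 (10.99) lay closer together than the arrays of either line (adjusted p = 1.43e-05). Its other bright probe sets reversed that order, with CAKI2 lowest at 7.20 and 7.08 and ACHN highest at 8.60 and 8.11. SLC2A3 ran in another order, from 9.995 in CAKI1 and 9.70 in A498 to 8.86 in ACHN and 7.80 in CAKI2 (adjusted p = 0.000793). The other bright probe sets of SLC2A3 had A498 highest, at 10.05 and 8.93, and CAKI2 lowest, at 7.26 and 7.06. PFKM was highest in ACHN, at 11.96 against 11.08 to 11.24, and did not pass without it (adjusted p = 0.783), as was so for PGD (0.761), TKT (0.112) and PFKFB4 (0.0685), each lowest in ACHN. Without CAKI2 the calls of ALDOA (0.279), ENO1 (0.452) and PFKL (0.871) were lost, and TPI1 was not called without A498 (0.223) nor PGM1 (0.415) and PDHA1 (0.0838) without CAKI1. HK1 was lost without ACHN (0.144) or CAKI1 (0.161), PFKL also without CAKI1 (0.051), and LDHB with any line left out (0.0581 to 0.0953).

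**Figure D4:**
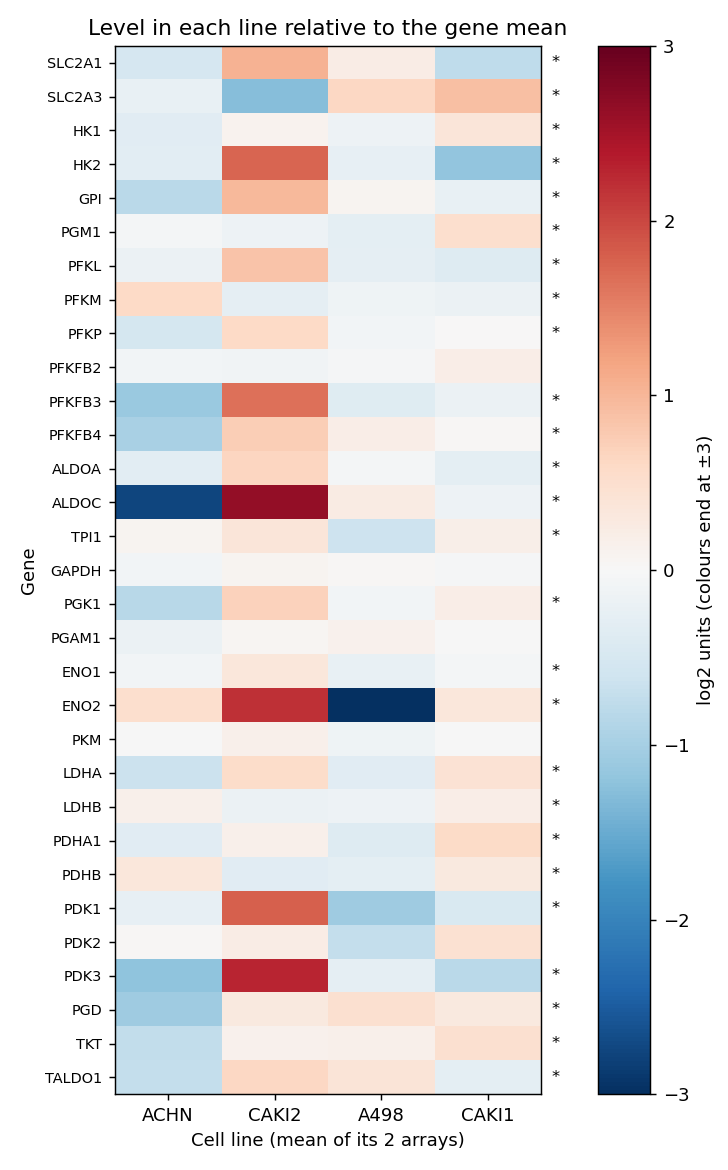
Level of the 31 genes in each line, as the mean of its 2 arrays minus the gene's mean over the lines, in log2 units (colour, red above and blue below, ending at 3 either way); an asterisk marks genes past the F test. The CAKI2 column is red for most genes, ALDOC, ENO2 and PDK3 most of all, and the ACHN column is blue for most.

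Other genes of sugar metabolism were taken from lists set by function, and the counts of each are to be read beside 14.7% higher and 15.9% lower of all genes tested. Among 9 further glycolytic genes 1 passed as higher and 3 as lower, the median being -0.32. HKDC1, a further hexokinase gene, rose by 1.44 ± 0.60 (adjusted p = 0.000903), by 0.89 or more in each line, and its 3 other probe sets gave 1.20 ± 0.38, 1.08 ± 0.83 and 0.13 ± 0.41. GALM, which flips the glucose ring form, had -0.77 ± 0.37, MINPP1, an inositol phosphate and bisphosphoglycerate phosphatase, -0.53 ± 0.30, and PGM2, a pentose phosphomutase, -0.42 ± 0.20. GALM was not called without A498 or CAKI1 (adjusted p = 0.0545 and 0.0512), MINPP1 without ACHN or A498 (0.0746 and 0.0866), nor PGM2 without CAKI2, A498 or CAKI1 (0.0557, 0.113 and 0.0662).

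Of 10 genes of gluconeogenesis and glycogen 0 rose and 2 fell, their median being -0.11. SLC37A4, the glucose phosphate carrier of the endoplasmic reticulum, fell evenly, at -1.42, -1.20, -1.28 and -1.31, or -1.30 ± 0.09 (limma adjusted p = 0.000387). PYGL, the liver-type glycogen phosphorylase, had -0.53 ± 0.31 and was not called without CAKI2, A498 or CAKI1 (adjusted p = 0.0675, 0.0686 and 0.0941). Of 11 other transport genes 1 rose and 3 fell, with a median of -0.28. EMB, a chaperone of lactate transporters, had -0.73 ± 0.44, the glucose transporter SLC2A10 0.61 ± 0.41, SLC2A11 -0.55 ± 0.31 and the inositol transporter SLC2A13 -0.48 ± 0.27. Each of these 4 calls was lost without ACHN, at adjusted p = 0.142, 0.123, 0.148 and 0.0812. CAKI1 ended those of EMB (0.214), SLC2A11 (0.0776) and SLC2A13 (0.103), A498 those of SLC2A10 (0.13) and SLC2A13 (0.104), and CAKI2 that of SLC2A11 (0.16).

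Of 8 other genes of pyruvate entry 1 rose and 2 fell, with a median of 0.06. MPC2, a subunit of the mitochondrial pyruvate carrier, fell, with -0.81 ± 0.24 (limma adjusted p = 0.00127), while MPC1, its partner, had 0.49 ± 0.54 and did not pass (adjusted p = 0.0924; named after its value was seen). Without CAKI1, where MPC1 stood at -0.30, its difference was 0.75 (adjusted p = 0.0128). DLAT, the acetyltransferase of pyruvate dehydrogenase, had -0.54 ± 0.30, a call lost without ACHN (-0.40, 0.0872). PDP1, the phosphatase that opposes the PDK kinases, rose by 0.38 ± 0.18, and by 0.19 ± 0.39 in its other probe set. The PDP1 call was lost without ACHN (0.0821), A498 (0.0985) or CAKI1 (0.134).

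Of 8 other pentose phosphate genes 0 rose and 3 fell, with a median of -0.37. PRPS2 and PRPS1, which turn ribose phosphate into the nucleotide precursor, had the largest falls, -1.38 ± 0.24 (limma adjusted p = 0.000274) and -0.92 ± 0.35 (0.00175), with -1.30 ± 0.30 and -0.95 ± 0.39 in their other probe sets. RPIA, ribose phosphate isomerase, had -0.49 ± 0.32 and lost its call without ACHN (-0.34, 0.147) or A498 (-0.48, 0.0924).

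Among 13 regulators 3 rose and 1 fell, the median being 0.16. TXNIP and ARRDC4, arrestins that limit glucose uptake, rose by 1.16 ± 0.85 (limma adjusted p = 0.00933) and 1.17 ± 0.60 (0.00334). In both, CAKI2 stood apart with -0.07 for TXNIP and 0.30 for ARRDC4, against 1.25 to 1.86 in the other lines. MLXIP, the glucose sensor that drives both genes, had -0.39 ± 0.11 (0.0343) and was not called with any 1 line left out (0.0722 to 0.117). MYC, a broad activator of glycolytic genes, rose by 0.48 ± 0.27 (0.0177), a call lost without ACHN (0.0819), CAKI2 (0.0586) or A498 (0.0623). HIF1A and EPAS1, the hypoxia-inducible factor subunits, had 0.13 ± 0.36 and 0.30 ± 0.78 and did not pass; they were named after their values were seen.

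Of the kidney markers, PAX8, a renal lineage factor, was bright (log2 level 12.40) as were KRT8 and KRT18, while LRP2, CUBN, CDH16 and GGT1 lay below the filter. Of 8 kidney markers tested 1 rose and 1 fell, the median being -0.38. PAX8 was higher with A939572 by 0.38 ± 0.19 and CA12 lower (-0.56 ± 0.45), both lost without ACHN (0.132 and 0.111) and A498 (0.0798 and 0.159) and, with CAKI2 left out, at 0.0684 and 0.0519. Leukocyte markers were below the filter in 4 of 4 genes, their summed signal being 62.2 to 143 with A939572 and 63.7 to 168 with DMSO. Fibroblast markers summed to 191 to 1017 with A939572 and 202 to 1412 with DMSO, below the filter for 4 of 5 with COL1A1 lower (-1.04 ± 0.36, and -0.11 ± 0.22 in its next probe set), and endothelial markers to 180 to 356 with A939572 and 166 to 505 with DMSO, below the filter for 3 of 4 with PECAM1 at -0.21 ± 0.20.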

How the data were processed

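The authors deposited intensity values on a linear scale for each probe set, read from oligonucleotide arrays hybridised with biotin-labelled cRNA, per the labels' protocols. The program that made them is not given in the sources used here; all 8 arrays had a trimmed mean (2% from each end) of 500.07, so the authors had scaled them alike. Of 54675 probe sets 62 controls were left out, and 41091 had 1 gene symbol (1801 had several, 11721 were unnamed). Symbols were updated by gene ID in a GRCh38.p14 table, with 41037 matched. Signals were taken as log2(signal + 16), quantile normalized, and each gene was read by its brightest probe set. A gene was tested if its mean reached 6.41, the median of all probe sets, which left 12093 genes, all 31 measured members among them. Tests used limma 3.58.1 in R 4.3.3 with a variance trend, 2-sided, and were checked on simulated data. The median SE of a log2 difference was 0.17; precision is limited by there being 8 arrays. An exact test on 4 pairs cannot go below 0.125. The line is a block because the submitters' design sets each treated array against its own DMSO array. Deviations of the 2 arrays of a line correlated at 0.82 to 0.86. Members and lists were chosen with earlier results of these data known. All members are named; of each other list up to 4 called genes with the largest change.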

Additional observations from a re-analysis of the deposited data

Results flagged for a closer look

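A check of 93 groups of 4 values (the levels with A939572, the levels with DMSO and the differences of 31 genes) picked out 3 values that lay far from the other 3 of their group, where chance picks about 1 group in 20. The difference of PGD in CAKI1 was 0.21, against -0.90 to -0.76 in the other lines. The level of ALDOA with A939572 in CAKI2 was 14.72, against 13.74 to 13.89. The level of TKT with DMSO in ACHN was 12.86, against 13.85 to 14.02.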

How the results depend on the processing

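Of 152 recomputed counts 137 stayed within 1.5 times the reported ones. Some could not change, as the 1.5-fold counts of each line hold the same members with no filter on dim genes. For small counts the limit is wide, a move from 3 to 2 lying within it. No replicate block, with the line out of the fit, left 38 genes higher and 29 lower and 0 members either way, where the fit with the line had 1778, 1928, 3 and 11. The members that fell numbered 5 with no filter on dim genes, 5 with no variance trend, 3 without probe sets ending in _s_at, _x_at or _a_at, which left 17 members to test, and 5 to 9 with a line left out (6 without ACHN). Over all genes 1656, 1633, 1343 and 1395 to 1567 fell in those settings, in the same order, beside 1928 in the main fit. The members that rose numbered 2 or 3 with a line left out. Without the _s_at, _x_at and _a_at probe sets 14 members differed between lines, and 3 were at least 1.5-fold higher in ACHN, 1 higher in A498 and 7 lower in A498. With the mean of all probe sets 3 members were at least 1.5-fold lower in CAKI2 and 1 higher in A498. Of single probe sets, HK2 had the opposite sign in 2 bright ones (-0.36 and -0.27); PGD had 0.065 and -0.58 in 2 that lay below the filter, which bear on no call. At offset 64 all 14 calls were kept, and 13 with no further normalization, which lost LDHA and added PFKFB3 and PDK3 (12 members lower). Centring arrays on their medians lost ALDOA, LDHA and PDHB and called 58.3% of changed genes higher, against 48% after quantile normalization; the member median was -0.21. The mean of all probe sets lost HK2, LDHA, PDK2 and PGD and added LDHB, PDHA1 and PDK3. Where the setting itself does not show it (fewer genes or arrays), the cause was not tested. Both CAKI2 arrays were highest for 13 to 16 members over 4 settings.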

Other observations

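The brightest probe set often gave the smaller change among these genes. Of 18 members with at least 2 probe sets above the filter, 14 had the same sign in the brightest and the next, and in 10 of those 14 (71.4%) the brightest had the smaller difference, as in PGK1, ENO1, PDK1 and LDHB. Over all genes this was so for 49.1% of 4695, and for 64.2% of the 341 whose brightest probe set averaged 13 log2 units or more. The cause was not tested.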
